A study of Mus musculus with 16 samples.

Results

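Genomic imprinting is the use of 1 parental copy of a gene, set by DNA methylation that is laid down in the egg or the sperm and kept after fertilisation. The 46 genes described here are imprinted genes of mouse autosomes other than chromosomes 1 and 12, taken by symbol from a table of 24978 gene symbols, with the line spanning the most bases used for each symbol. By what is known of them, 23 are used from the paternal copy, 7 from the maternal copy, and 16 from 1 copy only in some tissues or isoforms. In imprinted clusters a long noncoding RNA such as Airn or Kcnq1ot1 is often made from 1 copy and silences its neighbours on that copy. The zinc finger proteins ZFP57 and ZFP445, with TRIM28 and SETDB1, hold the methylation at such sites in embryonic stem cells.

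Nascent RNA was labelled for 30 min with 2 mM bromouridine and captured with an antibody (Bru-seq) in F121-9, a mouse embryonic stem cell line with 1 castaneus (cast) and 1 129S1/SvImJ (129) copy of each chromosome, and in edited lines of the same hybrid background. The 16 libraries formed 12 groups: the parental line F121-9 and the edits c.del, ab.del and abc.del with 2 libraries each, and a.del, b.del, ac.del, bc.del, 4k.b.c, 680kinv, 100kdel and 245kdel with 1 each. The labels name lettered deletions, intervals of DNA and an inversion, but give neither the positions nor the copy that was edited, and the series concerns DNA elements that control replication. All groups shared the cas/129 cross, whose direction the labels do not give, so no copy is called maternal or paternal here. Per the labels, hybrid cells were cultured in DMEM with 2i and LIF. Sample names of edited libraries end in codes that may name clones, so a group with 1 library can be 1 clone, and the codes differ between the 2 libraries of an edited group. The c.del libraries also differed in their chromosomes, with a median 129 share of X-linked genes of 1.0 in replicate 1 and 0.00175 in replicate 2. This median was either 1.0 or at most 0.00175 in every library of a.del, b.del, c.del, ab.del, ac.del, bc.del, abc.del and 4k.b.c. It was 0.467 and 0.491 in F121-9, 0.477 in 680kinv, 0.495 in 100kdel and 0.527 in 245kdel. Differences of those lettered groups and 4k.b.c from F121-9 thus cannot be told apart from this state of the X. Whether replicates came from separate cultures or edits is not in the labels, so each p-value rests on the spread of these libraries, which between the F121-9 libraries may be technical.

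Reads were split between both copies by their SNPs. Values are CPM of each copy, read counts scaled to a sum of 1000000 per copy and library, and a level is the mean of both copies. The 129 share is the 129 CPM over the sum of both, given for genes with at least 20 reads in a library, with a 95% Wilson interval that covers counting error only. Depth was 8.96 to 32.1 M reads (median 16.4 M, in units of 1000000). The median autosomal gene had a 129 share of 0.490 to 0.510 in every library, but whole chromosomes departed from it. Of the chromosomes that hold members, chromosome 7 of 4k.b.c did so, with a median of 0.349, and no other was 0.1 or more from 0.5 in any library. Of the autosomes without members, chromosome 1 gave 0.999 in a.del and 1.0 in 4k.b.c, chromosome 12 gave 0.00164 and 0.000638, and chromosome 8 gave 0.330 and 0.342. Chromosome 3 gave 0.312 in c.del replicate 1 and 0.334 in ac.del. The sample numbers of the deposit form 2 runs with 8 libraries in each, and the labels say nothing of what separates them. The 6 stem cell markers (Pou5f1, Nanog, Sox2, Zfp42, Esrrb and Klf4) summed to 1150 to 1296 CPM in F121-9 and 1096 to 1514 CPM in the edited libraries. The 5 fibroblast markers summed to at most 0.609 CPM, and 0 of 5 reached a mean of 0.2 CPM. The 4 primitive endoderm markers summed to 0.360 to 1.88 CPM, and the 5 mesoderm, trophoblast and neural markers to 0.748 to 1.83 CPM in F121-9 and to at most 11.8 CPM in the edited libraries, with Pax6, a neural factor, at up to 10.8 CPM. The part of these cells in the results was not tested, and in bulk RNA fewer cells that use a gene and less RNA per cell cannot be told apart.

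Promoter sequences are shown for 4 members on which the results turn: Plagl1, with the 129 copy higher in every library, Slc38a4 and Airn, with the cast copy higher in every library, and Grb10, low in several edited lines. The ZFP57 hexamer TGCCGC, searched on both strands in the 250 bases before each RefSeq start (GRCm38.p6), was present in 6 of the 38 members with an entry (15.8%) and in 8.68% of all 32851 promoters of that length. The 6 were Calcr, Copg2, Mcts2, Nap1l5, Plagl1 and Zim1. Each sequence runs 5′ to 3′ toward the start of its gene, with the hexamer or its reverse complement GCGGCA in capitals.
Plagl1 (chr10:13090582-13090831, plus strand): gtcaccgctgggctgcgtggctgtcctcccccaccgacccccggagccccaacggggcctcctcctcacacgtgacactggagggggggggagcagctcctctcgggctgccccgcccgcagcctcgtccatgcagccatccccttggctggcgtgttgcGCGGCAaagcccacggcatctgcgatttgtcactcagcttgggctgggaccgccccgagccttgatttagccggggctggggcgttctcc
Slc38a4 (chr15:97055957-97056206, minus strand): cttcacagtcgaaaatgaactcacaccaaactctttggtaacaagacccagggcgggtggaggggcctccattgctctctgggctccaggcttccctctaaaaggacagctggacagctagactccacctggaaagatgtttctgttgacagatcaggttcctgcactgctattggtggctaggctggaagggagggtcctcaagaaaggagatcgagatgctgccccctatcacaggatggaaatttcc
Airn (chr17:12741061-12741310, plus strand): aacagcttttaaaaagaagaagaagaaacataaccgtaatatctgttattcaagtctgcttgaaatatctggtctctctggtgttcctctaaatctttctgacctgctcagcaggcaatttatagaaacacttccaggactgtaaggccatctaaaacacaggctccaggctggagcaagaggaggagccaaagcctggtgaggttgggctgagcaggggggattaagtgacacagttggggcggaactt
Grb10 (chr11:12037421-12037670, minus strand): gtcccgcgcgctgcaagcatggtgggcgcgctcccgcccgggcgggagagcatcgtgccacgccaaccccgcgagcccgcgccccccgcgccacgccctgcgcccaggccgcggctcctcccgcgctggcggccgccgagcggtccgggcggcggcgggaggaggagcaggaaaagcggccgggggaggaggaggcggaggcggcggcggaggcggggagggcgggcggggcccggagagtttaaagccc
Among these 4, the hexamer was found before Plagl1 alone. CG pairs, the bases at which DNA methylation sits, numbered 19 before Plagl1, 3 before Slc38a4, 2 before Airn and 40 before Grb10. The hexamer itself holds a CG pair. The median number of CG pairs was 12 in the members and 6 in all promoters, so the 2 percentages are not from like sequences. The part of CG pairs in the hexamer counts was not tested. The letters are reference sequence and a match is a description, not a measured site.

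No member with enough reads to read a share was transcribed from 1 copy alone in both F121-9 libraries, and most were read from both copies, as most genes were. A share could be read in both of these libraries for 29 of the 46 members. A gene was counted as monoallelic with a 129 share of at least 0.9 or at most 0.1, and as biallelic from 0.3 to 0.7. In both F121-9 libraries 0 of 29 members with enough reads were monoallelic, beside 1.08% of the 5750 autosomal genes of the same 9 chromosomes. Biallelic in both were 24 of 29 members, beside 80.8% of those genes, so both counts lie near those of other genes. The exceptions were Plagl1, Zrsr1, Peg10, Usp29 and Kcnq1. In all 16 libraries 0 of 26 members were monoallelic (0.187% of 4820 genes) and 14 of 26 biallelic (65.6%). The 12 that were not biallelic throughout were those 4 of the exceptions with enough reads in every library (Plagl1, Zrsr1, Peg10 and Kcnq1), together with Ddc, Peg13, Slc38a4, Airn, Gnas, Sgce, Peg3 and Inpp5f. Peg3 left the biallelic range only in 4k.b.c (0.231), and Inpp5f had its lowest share there (0.289). The median of their chromosome 7 was 0.349 in that library. Single libraries reached the monoallelic range for 4 members: Plagl1 and Slc38a4 in a.del, Peg10 in b.del, and Kcnq1 in abc.del replicate 1 and in 680kinv. In that range were 2.06% (a.del), 3.72% (b.del), 2.68% (abc.del replicate 1) and 4.32% (680kinv) of genes on the same chromosomes. Members with enough reads there numbered 34, 27, 32 and 29. These are 5 values among those of 16 libraries. Of these groups only abc.del had a second library, in which Kcnq1 was outside the range.

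**Figure D1:**
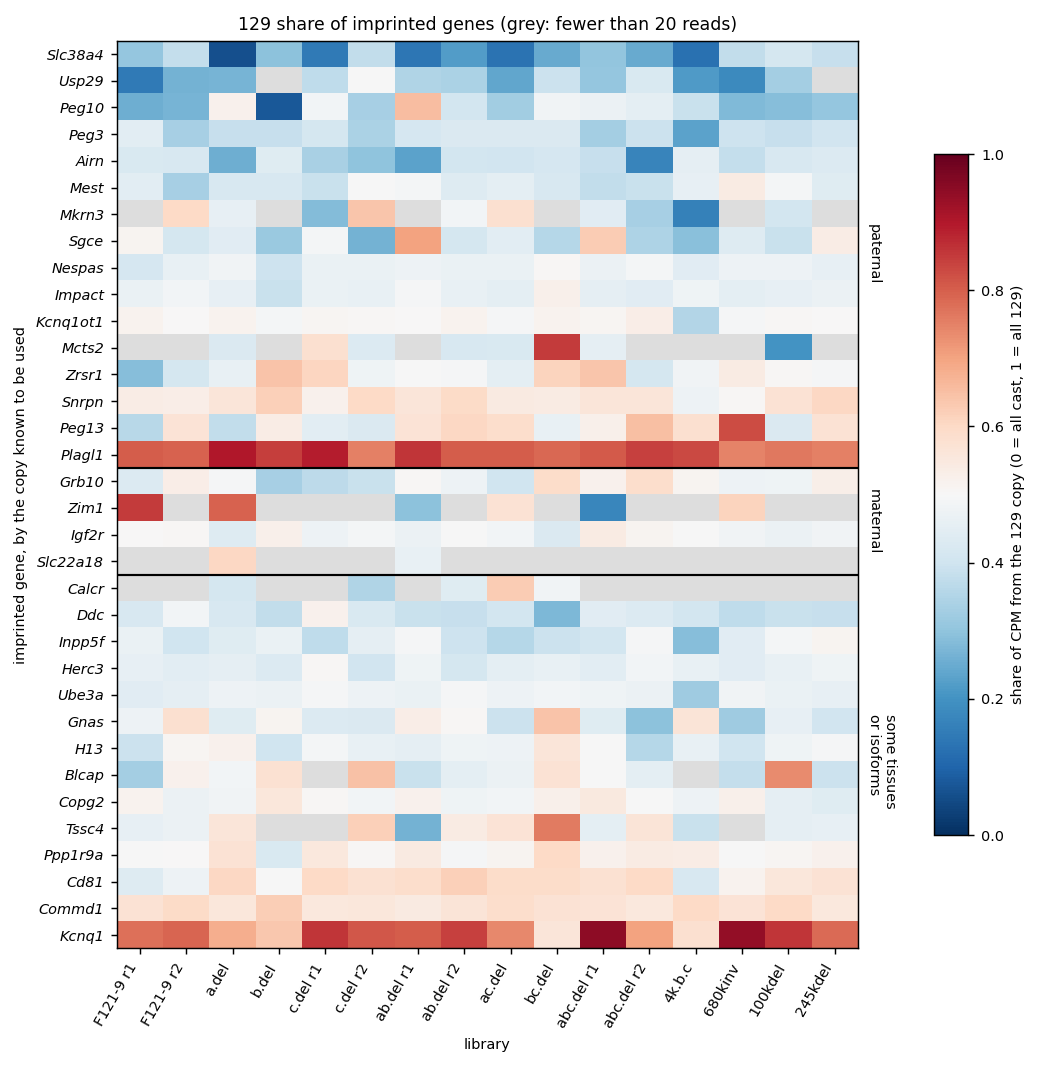
129 share (colour, from 0 for cast alone to 1 for 129 alone) of the 34 members with at least 20 reads in at least 1 library (rows, grouped by the copy known to be used) in the 16 libraries (columns). Grey marks fewer than 20 reads. Most cells are pale, near 0.5; Plagl1 and Kcnq1 stay toward 129 and Slc38a4 toward cast in every library.

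A standing difference between copies was tested with limma on the log2 ratio of 129 to cast over all 16 libraries, for 13583 autosomal genes with a mean of at least 0.2 CPM. It was called (adjusted p under 0.05) for 20 of the 34 members that passed this filter, 6 toward 129 and 14 toward cast, beside 47.6% of all genes tested (25.0% toward 129 and 22.6% toward cast). A ratio of at least 1 on the log2 scale was called for 4 members, beside 14.6% of all genes. The median log2 ratio of the members was -0.21 and that of all genes 0.01. Of the paternally used members, 10 of 16 were called, 2 toward 129 and 8 toward cast. Of the maternally used, 1 of 4 was called, Slc22a18, toward 129. Of those used from 1 copy in some tissues or isoforms, 9 of 14 were called, 3 toward 129 and 6 toward cast. Known use from 1 parent thus came with ratios in both directions.

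Slc38a4, a paternally used amino acid transporter of placenta and liver, varied most among the well-covered members. It lies on the minus strand of chromosome 15 (mm10, chr15:96994823-97055956). In the F121-9 libraries its 129 copy gave 60.9 and 135 CPM and its cast copy 137 and 221 CPM, which are 129 shares of 0.308 and 0.379. In abc.del the 129 copy gave 69.0 and 48.7 CPM against 160 and 147 CPM from cast. The 129 copy was the lower in both groups, at similar shares (0.302 and 0.249 in abc.del). In ab.del the copies gave 30.3 and 30.2 CPM (129) against 187 and 105 CPM (cast), shares of 0.139 and 0.223. In c.del they gave 22.6 and 84.0 CPM against 131 and 138 CPM, shares of 0.146 and 0.378. The c.del replicates thus stood apart, with replicate 2 inside the F121-9 range and replicate 1 below it.

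The lowest share of Slc38a4 was in a.del, at 0.0598 (Wilson 0.0468 to 0.0761, 938 reads), from 2.99 CPM for 129 and 47.0 CPM for cast. In ac.del it was 0.129 and in 4k.b.c 0.127, with 13.4 and 11.4 CPM from 129. Both were below every F121-9 and abc.del library. In bc.del it was 0.247, in b.del 0.294, in 680kinv 0.375, in 245kdel 0.387 and in 100kdel 0.413. The cast copy was the higher in all 16 libraries (log2 ratio -1.66, SE 0.23, limma adjusted p = 1.26e-05). Of the 19 members with at least 100 reads in every library, Slc38a4 was the 1 whose share spanned at least 0.3, beside 4.97% of 3420 genes at that depth. Over the shorter spans that the table also lists for Slc38a4 the shares ran from 0.0744 to 0.426 and from 0.0679 to 0.429.

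**Figure D2:**
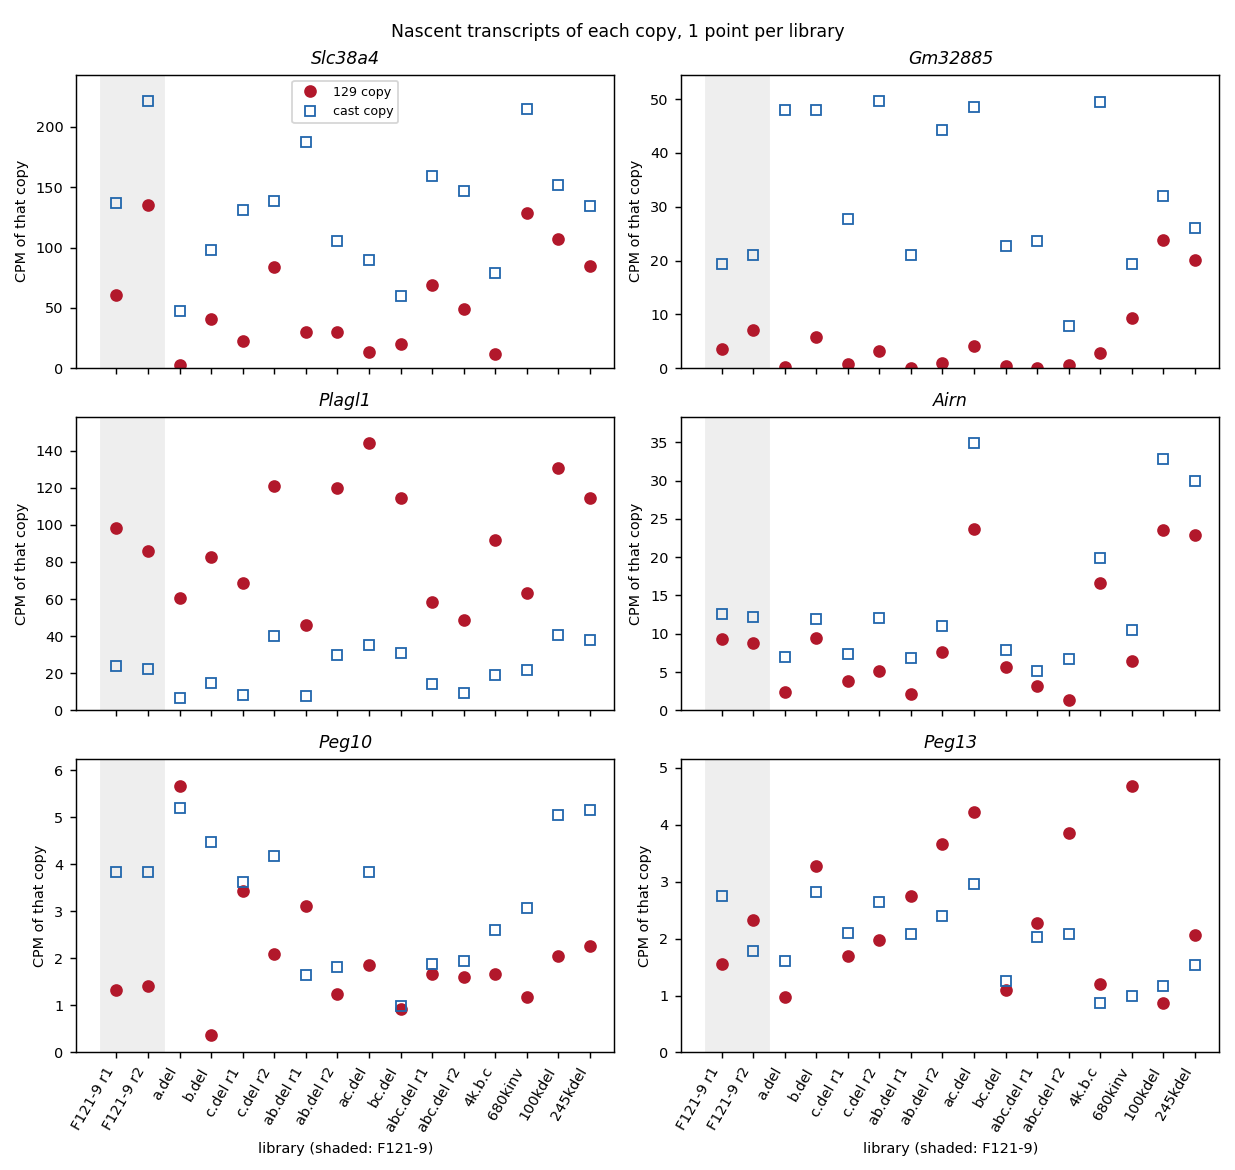
CPM of the 129 copy (filled circles) and the cast copy (open squares) in each library for 5 members and Gm32885, with F121-9 shaded. In the Slc38a4 and Gm32885 panels the circles lie below the squares in every library, and for Plagl1 they are higher than the squares.

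A nearby gene with shares as widely spread was Gm32885, known by its gene model number only, which is no member and was picked after its values were seen. It lies on the same strand (chr15:97161015-97167244), with its nearer end 105 kb from the start of Slc38a4. Its 129 share was 0.156 and 0.252 in F121-9, 0.327 in 680kinv, 0.427 in 100kdel and 0.435 in 245kdel. In the other 11 libraries it was 0.00247 to 0.108, with 0.0519 to 5.83 CPM from 129 and 7.80 to 49.6 CPM from cast. These 11 are also the libraries in which X-linked genes were read from a single copy. The part of the X in these shares was not tested. Part of these low shares came with a higher cast copy. In b.del and ac.del 129 gave 5.83 and 4.11 CPM, against 3.58 and 7.05 CPM in F121-9, while cast gave 48.1 and 48.5 CPM against 19.3 and 20.9 CPM. The shares of both genes did not follow each other in every library. Slc38a4 was near its F121-9 shares in abc.del replicate 1 (0.302), b.del (0.294) and c.del replicate 2 (0.378), where Gm32885 was at 0.00414, 0.108 and 0.0615. The balanced flanks were Slc38a2, another amino acid transporter, at 0.459 to 0.516, and Pced1b at 0.499 to 0.597. Slc38a1 was at 0.365 to 0.485. The median share of the genes within 2 Mb of Slc38a4 was between 0.47 and 0.51 in each library. Wide spreads were not confined to this pair. Pfkm (range 0.642, 20 reads in its lowest library) and Tuba1a (0.502, 38 reads) were among the genes within 2 Mb that spread as widely on fewer reads. A lean to cast in every library was also seen for 2610037D02Rik, at 0.123 to 0.357 on at least 83 reads.

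**Figure D3:**
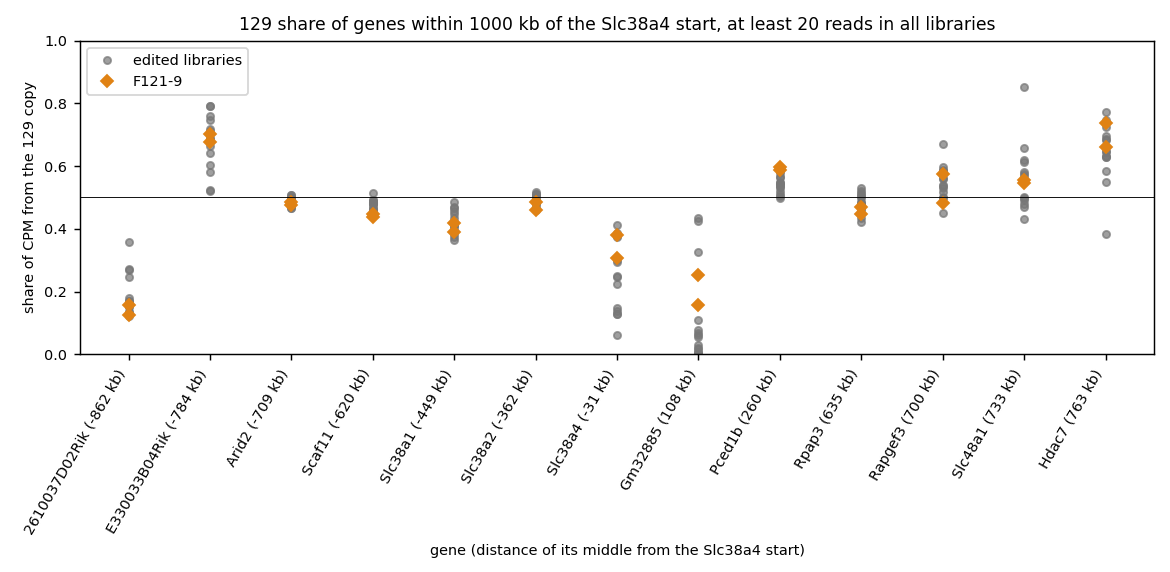
129 share of genes within 1000 kb of the Slc38a4 start, by distance in kb (diamonds, the F121-9 libraries; grey circles, the 14 edited libraries). Slc38a4 and Gm32885 spread from near 0 to above 0.4, while Slc38a2 and Pced1b on either side stay near 0.5.

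Plagl1, a paternally used zinc finger factor that controls a network of growth genes, was the member with the strongest lean toward 129 (chr10:13090832-13131694, plus strand). In F121-9 its 129 copy gave 98.4 and 86.0 CPM and its cast copy 24 and 22.2 CPM, shares of 0.804 and 0.795. In the edited libraries its share was lowest in 680kinv, at 0.746, and highest in a.del, at 0.901, where 60.8 CPM came from 129 and 6.64 CPM from cast. All 16 libraries lay on the 129 side (log2 ratio 2.14, SE 0.12, limma adjusted p = 8.27e-11). Hymai, an RNA that starts beside Plagl1 on the same strand and overlaps it, had shares of 0.642 to 0.905 and cannot be read as independent. The genes within 2 Mb had median shares of 0.46 to 0.54.

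The chromosome 17 cluster pairs Airn, the paternally made noncoding RNA, with Igf2r, the maternally used receptor that clears IGF2, in antisense. Airn (chr17:12741311-12859884, plus strand) leaned to cast, with shares of 0.424 and 0.420 in F121-9, 0.339 and 0.298 in c.del, 0.232 and 0.408 in ab.del, and 0.385 and 0.172 in abc.del. Single libraries gave 0.255 in a.del and 0.381 to 0.454 in the other 7. The 2 libraries of ab.del and of abc.del differed among themselves by more than their Wilson intervals. The cast copy of Airn was higher in 16 of 16 libraries (log2 ratio -0.80, SE 0.14, limma adjusted p = 8.46e-05). Igf2r (chr17:12682406-12769706, minus strand) had shares of 0.427 to 0.541, with 0.504 and 0.506 in F121-9, and was not called (log2 ratio -0.07, adjusted p = 0.203). The labels describe strand-specific libraries, but how strand entered the counting is not given in the sources used here. Kcnq1ot1, which lies wholly inside Kcnq1 on the opposite strand, had 179082 reads over 16 libraries, and Kcnq1 had 1267. Most reads of that RNA were thus not counted for Kcnq1. How fully the strands were kept apart was not tested, so values of antisense pairs carry that uncertainty.

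In the Kcnq1 cluster of chromosome 7, Kcnq1ot1, the paternally made noncoding RNA, was balanced and the potassium channel gene Kcnq1 was not. Kcnq1ot1 (chr7:143213111-143296547, minus strand) had 129 shares of 0.518 and 0.504 in F121-9 and 0.492 to 0.531 in the edited libraries other than 4k.b.c, where it was 0.354. Kcnq1 (chr7:143107254-143427042, plus strand) rested on 21 to 168 reads a library. Its share was 0.775 and 0.792 in F121-9, highest in abc.del replicate 1 (0.949, Wilson 0.880 to 0.978) and in 680kinv (0.939), and lowest in bc.del (0.561). In abc.del replicate 2 it was 0.702, below its own replicate. The 129 copy was higher in 16 of 16 libraries (log2 ratio 1.79, SE 0.24, limma adjusted p = 6.31e-06). Of their neighbours, Cd81, a tetraspanin, leaned to 129 in 12 of 16 libraries (log2 ratio 0.30, SE 0.09, adjusted p = 0.00919), a call that was lost within either run of sample numbers (adjusted p = 0.0612 and 0.0805). Tssc4 was not called (log2 ratio 0.10). Slc22a18, a maternally used transporter, had 20 reads in 2 libraries only, and its call (log2 ratio 0.80, SE 0.28, adjusted p = 0.0234) was lost within each run too (0.113 and 0.184).

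On chromosome 6, Peg10, a paternally used gene of retrotransposon origin needed for the placenta, was the member whose share shifted in more than 1 library. A shift means a share at least 0.2 from both F121-9 libraries with a Wilson interval that overlaps neither. By this rule 4 of 29 members shifted in at least 1 edited library, beside 17.9% of 5746 genes: Peg10, Slc38a4, Airn and Peg13. Peg10 (chr6:4747306-4760516, plus strand) had 1.32 and 1.41 CPM from 129 and 3.83 CPM from cast in both F121-9 libraries, shares of 0.257 and 0.269. It was higher in a.del (0.522, 213 reads), in ab.del replicate 1 (0.654, 90 reads) and in c.del replicate 1 (0.486, 168 reads), where 0.690%, 1.21% and 1.65% of genes were higher. Its share in the second library of those groups was 0.408 (ab.del) and 0.333 (c.del), which did not meet the rule. In b.del it was 0.0752 (47 reads), the lowest of all, and 0.278 to 0.483 in the 8 other edited libraries. Over 16 libraries it leaned to cast (log2 ratio -0.78, SE 0.23, limma adjusted p = 0.00838, 14 of 16 libraries), but not within the first run of sample numbers (-0.48, adjusted p = 0.207).

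Sgce, the sarcoglycan gene that starts opposite to Peg10, had shares of 0.514 and 0.411 in F121-9 and 0.264 to 0.701 in edited libraries, highest in ab.del replicate 1, where Peg10 was highest too. Its ratio was not called (log2 ratio -0.36, adjusted p = 0.0887). Ppp1r9a (log2 ratio 0.12) was not called, and Calcr, the calcitonin receptor (-0.77, SE 0.28, adjusted p = 0.0325), lost its call in 7 of the 16 fits that left out 1 library, with adjusted p up to 0.0652. The Calcr call was also lost within each run of sample numbers (limma adjusted p = 0.181 and 0.171). The 10 to 11 neighbours of Peg10 and Sgce within 2 Mb had a median share of 0.400 and 0.374 in F121-9 and of 0.432 to 0.510 in the edited libraries. The surroundings thus lay higher in every edited library, also in b.del, where Peg10 had its lowest share (0.0752). Their part in the Peg10 shares was not tested.

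The other shifted values were single. Slc38a4 was lower in a.del, as were 0.472% of genes. Airn was lower in abc.del replicate 2 (0.172, Wilson 0.118 to 0.243, 133 reads), as were 0.951% of genes, from 1.38 CPM for 129 and 6.65 CPM for cast. Peg13, a paternally made noncoding RNA of chromosome 15, had 129 shares of 0.361 and 0.567 in F121-9. It was higher in 680kinv (0.826, Wilson 0.742 to 0.887, 113 reads), as were 1.53% of genes, with 4.69 CPM from 129 and 0.989 CPM from cast. No group with 2 libraries had a shift of the same member in both.

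**Figure D4:**
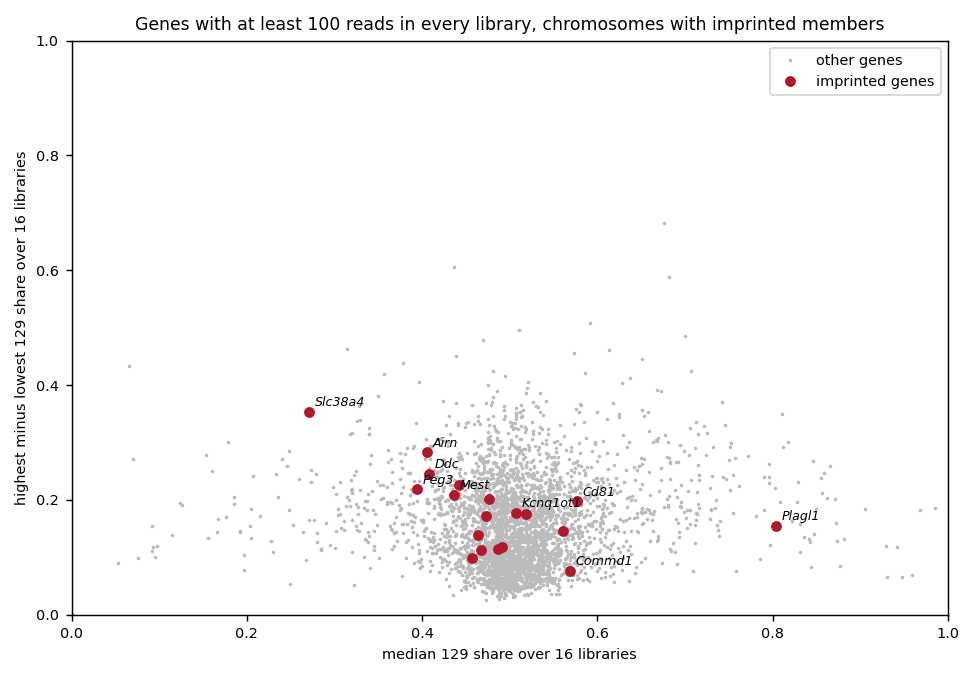
Median 129 share (x axis) and its highest minus lowest value over the 16 libraries (y axis) for genes with at least 100 reads in every library on chromosomes that hold members. The 19 members (large points) lie within the cloud of other genes (small points), with Slc38a4 highest at a range of 0.353 and Plagl1 farthest to the right at a median of 0.804.

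In the Peg3 domain of chromosome 7, both paternally used genes leaned to cast. Peg3, a zinc finger gene that restrains growth, gave shares of 0.449 and 0.333 in F121-9 and 0.330 to 0.428 in the edited libraries other than 4k.b.c (0.231), and cast was higher in 16 of 16 (log2 ratio -0.69, SE 0.09, limma adjusted p = 2.81e-06). Usp29, a deubiquitinase gene that starts opposite to Peg3, had shares of 0.147 and 0.264 in F121-9 on 56 and 42 reads, and at most 0.498 elsewhere (log2 ratio -1.22, SE 0.23, adjusted p = 0.000233). Zim1, the maternally used zinc finger gene beside them, had 20 reads in 6 libraries only, with shares of 0.174 to 0.851, and was not called (log2 ratio -0.24).

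The chromosome 7 region of Prader-Willi and Angelman syndromes held genes read from both copies and genes with few reads or none. Snrpn, a splicing protein gene, had shares of 0.473 to 0.618 and leaned to 129 in 15 of 16 libraries (log2 ratio 0.32, SE 0.05, limma adjusted p = 9.10e-05). Ube3a, a ubiquitin ligase imprinted in neurons, had shares of 0.322 to 0.494, below 0.5 in all 16 (log2 ratio -0.21, SE 0.06, limma adjusted p = 0.00567), a call that was lost within the second run of sample numbers (adjusted p = 0.0880). Mkrn3 had 20 reads in 10 libraries and was not called (log2 ratio -0.22). Ndn gave 7 reads over all 16 libraries, Peg12 gave 85 and Magel2 gave 0.

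Retrogenes and antisense RNAs inside host genes gave further pairs. Mest, a paternally used hydrolase gene, leaned to cast in 15 of 16 libraries (log2 ratio -0.36, SE 0.08, limma adjusted p = 0.000705, shares of 0.332 to 0.541), and its antisense neighbour Copg2, a coatomer subunit, was balanced (0.441 to 0.558). Zrsr1, a paternally used splicing retrogene, had shares of 0.286 and 0.411 in F121-9 and 0.410 to 0.641 elsewhere and was not called (log2 ratio 0.01). Its host Commd1 had shares of 0.546 to 0.622, above 0.5 in all 16 (log2 ratio 0.42, SE 0.03, adjusted p = 1.59e-08). Mcts2, a paternally used retrogene in an intron of H13, had 20 reads in 8 libraries, with shares of 0.20 to 0.848, and its reads are shared with H13 on the same strand. H13, a signal peptide peptidase, had a log2 ratio of -0.21 (SE 0.08, adjusted p = 0.0359), lost in 6 of the 16 fits that left out 1 library (adjusted p up to 0.0710). The H13 call was also lost within each run of sample numbers (limma adjusted p = 0.134 and 0.119). Nespas, the antisense RNA of the Gnas cluster, leaned to cast (log2 ratio -0.21, SE 0.04, adjusted p = 0.000308), whereas Gnas itself was not called (-0.21, adjusted p = 0.195). Herc3 leaned to cast (log2 ratio -0.26, SE 0.04), and Blcap was not called (0.02). Their inner genes Nap1l5 and Nnat had 5 reads and 1 read in all.

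Among the rest, Ddc, the enzyme that makes dopamine and serotonin, leaned to cast in 15 of 16 libraries (log2 ratio -0.53, SE 0.08, limma adjusted p = 3.56e-05), and its neighbour Grb10 was not called (-0.14, adjusted p = 0.315). Inpp5f, a phosphatase gene, leaned to cast (log2 ratio -0.41, SE 0.09, adjusted p = 0.000995), as did Impact, a regulator of the amino acid response (-0.21, SE 0.04, adjusted p = 0.000580). The Impact call was lost within the first run of sample numbers (-0.15, adjusted p = 0.0603). Peg13 was not called (log2 ratio 0.21, adjusted p = 0.344). In 12 members no library reached 20 reads, so no share was read: Slc22a3, Nnat, Nap1l5, Ndn, Magel2, Peg12, H19, Igf2, Ascl2, Cdkn1c, Phlda2 and Rasgrf1. They include H19 and Igf2, a maternally used noncoding RNA and the paternally used growth factor beside it, with 40 and 20 reads over 16 libraries. Whether they are imprinted in these cells was not detectable at this depth.

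Of the chromosome 7 members, Kcnq1ot1, Ube3a, Inpp5f, Peg3, Snrpn, Cd81 and Mkrn3 had their lowest shares in 4k.b.c, as the chromosome as a whole did. Beside the chromosome median of 0.349, the 129 share was 0.354 for Kcnq1ot1, 0.322 for Ube3a, 0.289 for Inpp5f and 0.231 for Peg3. Snrpn (0.473) and Cd81 (0.422) were higher than the chromosome median. The part of the chromosome in these shares was not tested. Without 4k.b.c the count of shifted members was again 4, beside 16.6% of genes.

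The edits were compared with F121-9 through the 4 groups with 2 libraries, in 1 limma fit of 8 libraries for the copy ratio and 1 for the level. The comparisons share the F121-9 libraries. In F121-9 X-linked genes were read from both copies and in each edited library here from 1, so edit and X cannot be told apart. For the copy ratio 0 of 34 members were called in abc.del (0.0810% of 13583 genes), in ab.del (0.0515%), in c.del (0.00736%) and in the interaction, the c deletion with against without the ab deletion (0.0%). Members with an unadjusted p under 0.05 numbered 3, 3, 2 and 2, beside 1010, 741, 952 and 633 of the 13583 genes. The alternative test edgeR called 0 members in each. The median difference over members was 0.11 in abc.del, 0.08 in ab.del and -0.0027 in c.del, beside 0.07, 0.07 and 0.02 over all genes. Cd81 had the smallest p of the members in each comparison. Its 129 share was 0.436 and 0.476 in F121-9, 0.576 and 0.599 in abc.del, 0.587 and 0.619 in ab.del, and 0.601 and 0.577 in c.del, so all 6 edited libraries of these groups lay above both F121-9 libraries. Its log2 ratio differed from F121-9 by 0.76, 0.85 and 0.77 (SE 0.20 each), which did not pass (limma adjusted p = 0.319, 0.381 and 0.482; unadjusted 0.00229, 0.00101 and 0.00211), and the interaction was -0.86 (SE 0.28, adjusted p = 0.953). The Slc38a4 log2 ratio was lower by 0.46 (SE 0.45) in abc.del, by 1.27 (SE 0.45) in ab.del and by 0.69 (SE 0.45) in c.del, with adjusted p of 0.883, 0.825 and 0.790. Peg10 was higher by 1.21, 1.61 and 0.90 (SE 0.62; adjusted p = 0.728, 0.874 and 0.801). Among the 4 groups, the Slc38a4 replicates differed most in c.del. Without c.del replicate 1 or without replicate 2 the ab.del difference was called (adjusted p = 0.0160 in each fit). The c.del difference was -1.60 without replicate 2 (adjusted p = 0.00166) and 0.22 without replicate 1 (adjusted p = 0.98), so its direction rests on 1 library. With the run of sample numbers as a covariate the ab.del and c.del differences were called at -1.93 and -1.35 (adjusted p = 0.00358 and 0.0368).

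No member passed the main test for level in these groups. Between abc.del and F121-9 0 of 34 members were called (0.220% of 14094 genes), as in ab.del (0.0497%), c.del (0.0497%) and the interaction (0.00710%). Members with an unadjusted p under 0.05 numbered 3, 3, 2 and 1, beside 1445, 1099, 1331 and 691 of the 14094 genes. The alternative test edgeR called 0 members in each. DESeq2 called 3 in abc.del (Grb10, Airn and Peg3), 1 in ab.del (Grb10), 2 in c.del (Grb10 and Mest) and 0 in the interaction. Over all genes DESeq2 called 222 in c.del and 20 in the interaction, and its counts in abc.del and ab.del are not given here. The median log2 level difference over members was 0.03 in abc.del, 0.25 in ab.del and -0.0049 in c.del, beside 0.04, 0.08 and 0.09 over all genes. The median autosomal level lay 0.07 (abc.del), 0.15 (ab.del) and 0.17 (c.del) above F121-9 on the log2 scale, and the values here are not relative to it.

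Grb10, the maternally used adaptor that dampens insulin receptor signalling, had the smallest adjusted p for level in abc.del and was looked at after its values were seen. Its level was 9.31 and 11.1 CPM in F121-9, 1.42 and 1.71 CPM in abc.del, 1.44 and 4.78 CPM in ab.del, and 2.74 and 3.43 CPM in c.del. All 6 edited libraries of these groups lay below both F121-9 libraries. Of the groups with 1 library, bc.del gave 2.55 CPM, ac.del 4.53, 100kdel 5.73, a.del 6.04, 4k.b.c 7.34, 245kdel 9.78, b.del 13 and 680kinv 14.9 CPM. The log2 difference from F121-9 was -2.63 (SE 0.55, adjusted p = 0.120) in abc.del, -1.90 (adjusted p = 0.409) in ab.del and -1.69 (adjusted p = 0.408) in c.del. In abc.del it was called after median centring (adjusted p = 0.0336), with the run as a covariate (0.00923), with only the 2 groups fitted (0.00418) and by DESeq2 (2.34e-05). Its 129 share stayed between 0.332 and 0.593, with both copies low.

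Other level differences did not pass. In abc.del Airn had a log2 difference of -1.37 (SE 0.42, adjusted p = 0.275), from 11 and 10.5 CPM in F121-9 to 4.16 and 4.01 CPM. Peg3 had 1.28 (SE 0.32, adjusted p = 0.204), from 9.27 and 11.8 CPM to 30.8 and 21.3 CPM. The libraries of the 2 groups did not overlap for either gene. Mest had 1.69 in c.del (SE 0.47, adjusted p = 0.329), with 5.96 and 5.07 CPM in F121-9 and 15.0 and 21.5 CPM in c.del. Plagl1 had -0.83 in abc.del (SE 0.47, adjusted p = 0.589). Plagl1, Airn and Peg3 were called in abc.del with the run as a covariate and with only the 2 groups fitted.

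The groups with 1 library have no spread of their own. They were tested in a limma fit of all 12 groups, added after the data were seen, in which a lone library is assumed to vary like those of the 4 groups with 2. For the copy ratio, the percentages of genes given here are over all autosomes. These include chromosomes 1, 8 and 12, which hold no members and departed as wholes in a.del and 4k.b.c. The percentages are thus not a like measure for the members. For unadjusted p-values of this fit the share over all genes was not taken. For the copy ratio 4 of 34 members were called in at least 1 of the 8 groups, beside 15.0% of genes. In a.del the Slc38a4 ratio was below that of F121-9, at a log2 difference of -2.99 (SE 0.55, adjusted p = 0.00201), and that of Cd81 was above it, at 0.85 (SE 0.24, adjusted p = 0.0401), with a Cd81 share of 0.604. In 4k.b.c the ratio was lower for Slc38a4 (-1.84, adjusted p = 0.0459), Ube3a (-0.78, adjusted p = 0.000429) and Kcnq1ot1 (-0.93, adjusted p = 2.80e-05), the last 2 on chromosome 7. Genes called were 10.2% in a.del and 13% in 4k.b.c. In the other 6 groups 0 members were called, with 2 to 6 at an unadjusted p under 0.05. For the level 1 of 34 members was called, beside 0.525% of genes: Slc38a4 in a.del, at a log2 difference of -2.40 (SE 0.41, adjusted p = 0.0487). In the other 7 groups 0 were called, with 0 to 7 at an unadjusted p under 0.05.

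Without a test, a level at least 1 on the log2 scale from the F121-9 mean was seen in at least 1 of these 8 libraries for 22 of 34 members, beside 57.6% of genes. Higher were 9 members in a.del (17.5% of genes), 4 in b.del (10.9%), 8 in ac.del (12.4%), 4 in bc.del (5.95%), 8 in 4k.b.c (18.0%), 1 in 680kinv (3.91%), 8 in 100kdel (13.1%) and 9 in 245kdel (14.7%). Zrsr1 was higher in 7 of the 8 libraries, and Mest and Mcts2 in 6 each. The F121-9 libraries of Zrsr1 themselves lay at -0.88 and 0.88 around their mean. Mcts2 was low, at 0.110 to 1.78 CPM over the 16 libraries. The share of all genes that were higher in as many of these libraries was not taken. Lower were 3 members in a.del (11.8%), 2 in b.del (15.4%), 5 in ac.del (8.58%), 4 in bc.del (13.6%), 1 in 4k.b.c (8.97%), 2 in 680kinv (4.95%) and 0 in 100kdel (2.91%) and 245kdel (2.75%). Slc38a4 gave 25.0 CPM in a.del, 39.8 in bc.del, 45.0 in 4k.b.c and 51.6 CPM in ac.del, which met this rule, against 98.8 and 178 CPM in F121-9. Mest reached 54.6 CPM in a.del and 32.1 CPM in 4k.b.c, and stayed at 5.42 CPM in bc.del.

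**Figure D5:**
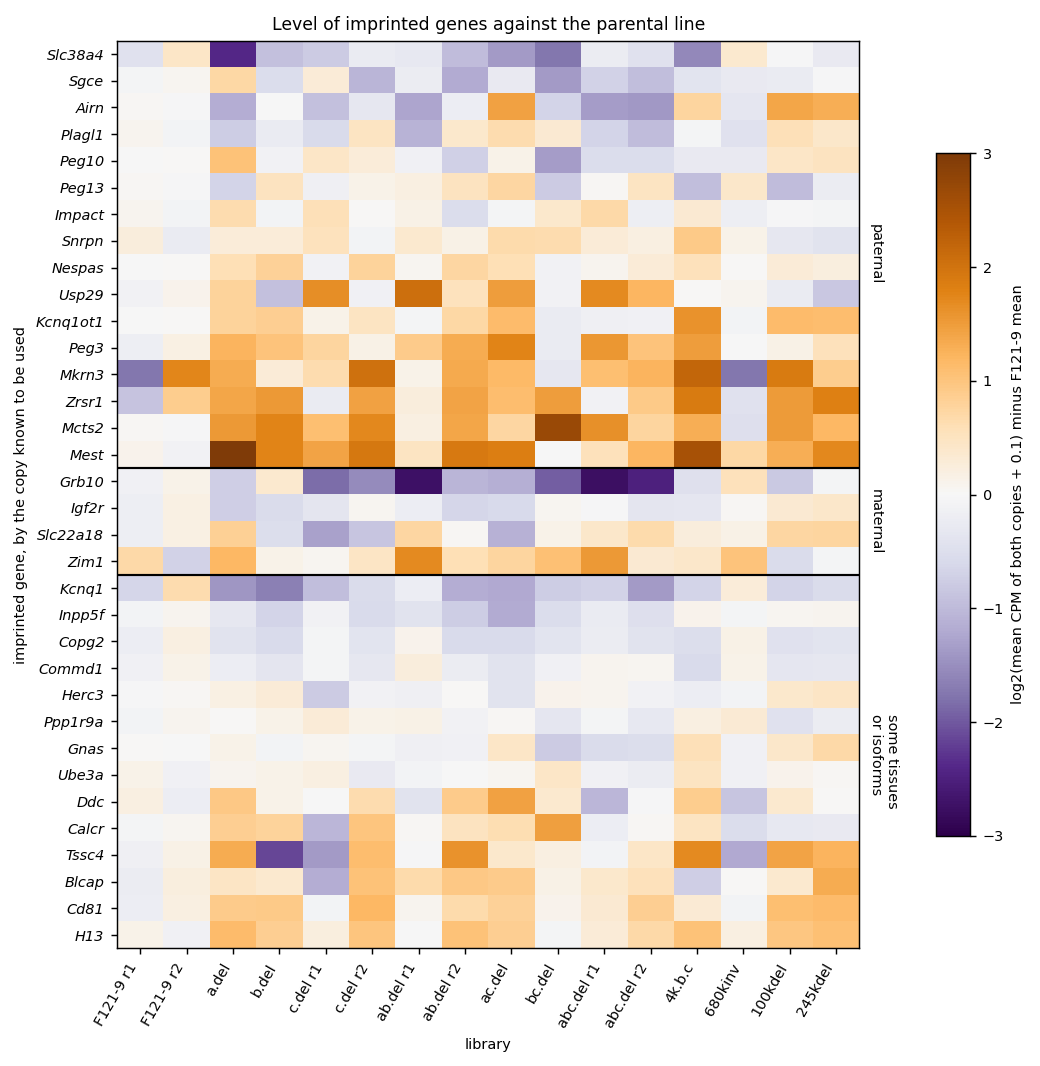
Level of each member (rows) in each library (columns) as the log2 difference from the F121-9 mean, from -3 (purple) to 3 (orange). Mest and Zrsr1 are orange in most edited libraries, and Grb10 is darkest in ab.del replicate 1 and both abc.del libraries.

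Levels were also set side by side for the 2 runs of sample numbers. The first run held both F121-9 and both abc.del libraries, 1 library each of ab.del and c.del, bc.del and 680kinv. In the second run all libraries were higher than all of the first for 2 of 34 members (5.95% of genes), Kcnq1ot1 and H13, and lower for 1 (1.38%), Commd1. Kcnq1ot1 gave 179 to 232 CPM in the first run and 295 to 645 CPM in the second. The groups a.del, b.del, ac.del, 4k.b.c, 100kdel and 245kdel had no library in the first run. Their differences from F121-9 in level, share or copy ratio thus cannot be told apart from the run.

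Genes tied to the keeping of imprints were measured beside the members. The list also holds Tet1 and Tet2, enzymes that help remove DNA methylation. All 16 on the list, among them Zfp57, Zfp445, Trim28, Setdb1, Dnmt1, Uhrf1 and Dppa3, passed the filter on level. In the level comparisons 0 of 16 were called in each, with 1, 1, 0 and 0 at an unadjusted p under 0.05 in abc.del, ab.del, c.del and the interaction. At that unadjusted p were 1445, 1099, 1331 and 691 of 14094 genes. Their median log2 level difference was 0.26 in abc.del, 0.04 in ab.del and 0.13 in c.del, beside 0.04, 0.08 and 0.09 over all genes tested. The copy ratio over 16 libraries was called for 5 of 16, beside 47.6% of all genes: Tet1 toward 129 and Dnmt3a, Ehmt2, Dnmt3b and Eed toward cast. The Dnmt3a ratio varied widely between libraries (log2 ratio -1.51, SE 0.58, limma adjusted p = 0.0409). The SE was 0.05 for Tet1, 0.12 for Ehmt2, 0.09 for Dnmt3b and 0.06 for Eed. Which libraries made the Dnmt3a lean was not tested.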

How the data were processed

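Bru-seq was done in 16 libraries of F121-9 cells and edited lines. Bowtie2, bedtools and mm10 are named in the submitters' processing notes, without versions. Per the file headers, reads were clipped, filtered at a mapping quality of 10 and split by homozygous SNPs into svim (129) and cast. The values deposited by the authors, although the table is named RPKM, are CPM: each of the 32 columns sums to 1000000 over 42497 lines, with no sign of scaling to gene length. Each value over the smallest in its column gave whole reads within 0.01 for 100.0% of values. These reads gave the counting intervals, edgeR and DESeq2. A floor of 3 reads was 0.0833 to 0.296 CPM (129) and 0.0905 to 0.329 CPM (cast). The share was taken on CPM, where the design named reads.

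Groups came from the sample names. Levels were log2(mean CPM + 0.1) and ratios log2(129 + 0.1) minus log2(cast + 0.1), so folds of low genes are understated. Genes needed a mean of at least 0.2 CPM. limma 3.58.1 (R 4.3.3, trended eBayes, two-sided, Benjamini-Hochberg over all genes) was the main test; edgeR 4.0.16 and DESeq2 1.42.0 were alternatives. Scripts were tested on simulated data. The 6 segments drawn by the authors were left out. Given library by library were members monoallelic in F121-9, with a shifted share or called in a comparison; others were given by ranges. Usp29, Kcnq1, Plagl1, Igf2r, Grb10 and others given more fully, and Gm32885 and Hymai, were chosen after their values were seen. The members and lists were chosen with earlier results of these data known. Alternatives covered pseudocounts, filters, thresholds, centring, the line per symbol, the fit, the run of sample numbers in the model, and 1 library left out at a time. A fit of all 12 groups for those with 1 library was added after the data were seen. Python 3.11.15 was used with numpy 2.4.6, pandas 2.3.3, scipy 1.17.1 and matplotlib 3.10.9.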

Additional observations from a re-analysis of the deposited data

How the results depend on the processing

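No member was monoallelic in both F121-9 libraries or in all 16 libraries under any of the alternatives run for these counts. Shifted members numbered 4, 13 with a difference of at least 0.1, 1 with at least 0.3, and 10 to 11 when 1 F121-9 library was left out. The 20 members with a called copy ratio were 18 to 20 when 1 library was left out. Within the first run of sample numbers 15 members were called, 14 of the 20 and Ppp1r9a, and within the second 16, 15 of the 20 and Sgce. Of 666 values of single genes under alternatives, 618 kept direction and side of the threshold, 25 lost the call, 22 gained it and 1 reversed: Slc38a4 in c.del, 0.22 without c.del replicate 1 and -1.60 without replicate 2.

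Members called for the copy ratio, 0 in each comparison, were 1 in ab.del with the run as a covariate, 1 with only the 2 groups, and 0 to 1 with 1 library left out. They were 1 in c.del with the run as a covariate and 0 to 2 with 1 library left out (Slc38a4 and Plagl1 without c.del replicate 2), and 1 in the interaction with the run as a covariate and 0 to 1 with 1 library left out. Members called for level in abc.del were 1 with median centring, 4 with the run as a covariate, 4 with only the 2 groups and 3 with DESeq2. In ab.del they were 3 with the run as a covariate and 1 with DESeq2, and in c.del 1 and 2. Members with a level at least 1 on the log2 scale from F121-9 in a group with 1 library numbered 22, and 1 was called by the limma fit of 12 groups, which asks for an adjusted p. The cause of the other differences was not tested.

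Counts over all genes moved more. Copy ratio calls ranged from 1 to 87 in abc.del (11 as reported), 2 to 38 in ab.del (7), 0 to 36 in c.del (1) and 0 to 6 in the interaction (0) with all libraries, and reached 58, 34, 425 and 239 when a c.del library was left out. Level calls ranged from 13 to 671 in abc.del (31), 6 to 202 in ab.del (7), 5 to 222 in c.del (7) and 1 to 20 in the interaction (1), most with the run as a covariate or DESeq2, and fell to 0 in each when an F121-9 library was left out. Shares of genes with 20 to 100 reads, such as Kcnq1, Peg10, Peg13 and Usp29, are limited by depth. No paired analysis was possible because only the F121-9 names carry replicate numbers.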
